A study of Mus musculus with 2 samples.

Results

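Kappa variable genes are described here in the plasma cells of the proximal small intestine of 2 mice. All 160 genes whose symbol begins with Igkv were taken from a table of 31053 genes, and none was left out for a low count. A barcode was kept when it held more than 100 genes, more than 400 unique molecular identifiers (UMIs, each standing for 1 captured transcript) and under 5% mitochondrial UMIs. It was called a plasma cell when Mzb1, Derl3 and Xbp1, a chaperone, a degradation factor and a transcription factor of the secretory pathway, together held 10 or more UMIs. This gave 2315 plasma cells among 8186 kept barcodes in mouse 1 and 704 among 6968 in mouse 2. Each plasma cell was then assigned its top Igkv gene when that gene alone held at least 50% of the Igkv UMIs of the cell, which gave 2198 and 641 assigned cells.

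Both mice were VilCreER Apc fl/fl (APC), so that tamoxifen switches on Cre recombinase under the Villin promoter, which is active in intestinal epithelium, and deletes Apc there. They received 2 injections of 2 mg tamoxifen 24 h apart and were sampled on day 4. The mice formed a single group with no control, so usage was described in each mouse and no condition was compared with another. Viable cells of the digested tissue were loaded, with no sort for plasma cells.

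A kappa light chain is encoded by 1 of many variable (V) segments joined in the DNA to 1 joining (J) segment and spliced to the constant gene Igkc. Each B cell lineage makes such a join, as a rule productively on 1 allele only, and its daughters inherit it together with a heavy chain join, so the V gene that a plasma cell transcribes is a mark of its clone. Plasma cells of the gut wall mostly secrete IgA, which is carried into the lumen. The libraries count transcripts from the 3′ end, whereas V segments lie near the 5′ end, so the junction itself was not read and a shared V gene does not by itself show a shared clone.

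All 160 genes were found by identifier on chromosome 6 of GRCm38 (mm10) in GENCODE M21, which lists 100 of them as V genes and 60 as V pseudogenes. The genes on which the results turn differ in the last bases of the V segment, where the third complementarity-determining region (CDR3) begins. These 90 bases are printed for 8 genes, with the bases after the codons for tyrosine, tyrosine or phenylalanine, and cysteine in capitals. Those codons were found in 97 of the 100 V genes. The first 3 sequences belong to the genes with the highest mean usage, and Igkv1-110 is a close copy of Igkv1-117.
Igkv6-23 (chr6:70260409-70260498, minus strand): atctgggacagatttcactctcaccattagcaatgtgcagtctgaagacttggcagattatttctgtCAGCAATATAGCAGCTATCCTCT
Igkv1-117 (chr6:68121738-68121827, plus strand): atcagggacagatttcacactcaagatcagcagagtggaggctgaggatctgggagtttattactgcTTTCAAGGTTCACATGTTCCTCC
Igkv12-44 (chr6:69814631-69814720, minus strand): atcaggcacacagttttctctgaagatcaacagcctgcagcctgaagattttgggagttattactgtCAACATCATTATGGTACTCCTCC
Igkv1-110 (chr6:68271178-68271267, plus strand): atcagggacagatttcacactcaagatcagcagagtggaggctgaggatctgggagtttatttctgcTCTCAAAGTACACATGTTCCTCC
The next pair, Igkv8-24 and Igkv19-93, was seen together in 1 group of cells of mouse 1.
Igkv8-24 (chr6:70216858-70216947, minus strand): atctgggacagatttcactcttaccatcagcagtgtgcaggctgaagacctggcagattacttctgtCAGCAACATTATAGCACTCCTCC
Igkv19-93 (chr6:68736297-68736386, minus strand): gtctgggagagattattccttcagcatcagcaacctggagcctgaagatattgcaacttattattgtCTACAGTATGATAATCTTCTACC
The last pair, Igkv3-1 and Igkv3-2, are the V genes nearest to the J segments and were seen in many cells that were assigned another gene.
Igkv3-1 (chr6:70704088-70704177, plus strand): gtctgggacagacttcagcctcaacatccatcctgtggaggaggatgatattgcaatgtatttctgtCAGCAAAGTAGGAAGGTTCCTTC
Igkv3-2 (chr6:70698978-70699067, plus strand): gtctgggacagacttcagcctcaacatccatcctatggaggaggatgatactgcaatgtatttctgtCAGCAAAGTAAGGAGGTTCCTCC

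Igkv1-117 and Igkv1-110 differed at 4 of these 90 bases, 3 of them in the capitals, and were 97.5% identical over their aligned transcripts. Igkv8-24 and Igkv19-93 differed at 33 of the 90. The capitals were the same in more than 1 gene for 24 of the 97 V genes, Igkv6-23 and Igkv6-13 among them, and 4 genes of family 4 (Igkv4-59, Igkv4-68, Igkv4-71 and Igkv4-72) shared 1 run. Igkv5-43 and its nearest copy Igkv5-45 had the same 90 bases, and reads from that stretch could not be told apart between them.

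Before usage was read, the label was checked against markers that the rule did not use. All 10 plasma cell markers on the list, among them Jchain, the plasma cell surface protein Sdc1 and the survival receptor Tnfrsf17, were higher in the plasma cells than in the other kept barcodes of both mice, in UMIs per 1000000 UMIs (CPM). The 8 T cell markers were all lower in CPM, at a summed 119 against 3085 CPM in mouse 1 and 149 against 6366 CPM in mouse 2. The 5 myeloid and the 6 epithelial markers were also lower in CPM. By share of cells with a UMI this did not hold for all of them. Epcam was found in 65.7% and 59.7% of plasma cells, against 28.7% and 22.1% of the other barcodes. Cd4 and Fabp2 were also found in a larger share of plasma cells in both mice. Of the 9 B cell markers, Cd79b alone, a part of the B cell receptor, was higher in plasma cells. The rule also let in barcodes with little immunoglobulin RNA. In 44 plasma cells of mouse 1 and 66 of mouse 2, Igkc and Iglc1 to Iglc3 together held under 100 UMIs. Their median was 11 UMIs of Xbp1 and 0 UMIs of Mzb1 and Derl3 summed, and 95.5% and 97.0% held a UMI of the leukocyte gene Ptprc. They were kept, as the rule asks, and values without them are given where they matter.

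The libraries differed in background. In mouse 1, 4 pancreatic acinar enzyme genes summed to 2362 CPM in plasma cells and 11298 CPM in the other barcodes, while in mouse 2 they were below 1 CPM in both (0.0699 and 0.471 CPM). T cells, which do not rearrange kappa genes, served as the measure of free Igkv RNA. Of 3110 T cells of mouse 1, 42.4% held an Igkv UMI, against 8.33% of 5306 T cells of mouse 2, at median depths of 3302 and 2586.5 UMIs. Igkv RNA stood at 153 and 32.5 CPM in T cells and at 4547 and 4230 CPM in plasma cells. Of the 24 barcodes present in both libraries, 2 belonged to a plasma cell in 1 of them and 0 in both.

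Nearly every plasma cell held Igkv RNA, and in most of them 1 gene took almost all of it. An Igkv UMI was found in 98.1% of plasma cells of mouse 1 (95% exact binomial interval, 97.5 to 98.6) and in 91.9% in mouse 2 (89.6 to 93.8), at median depths of 22929 and 19981 UMIs per plasma cell. These intervals cover counting error only, and cells of a clone are not independent. Over all plasma cells there were 250261 and 60493 Igkv UMIs. The median cell held 82 Igkv UMIs in mouse 1 and 73.5 in mouse 2, beside 9360 and 7596 UMIs of Igkc. Summed over assigned cells, the Igkv count came to 1.16% and 1.12% of the Igkc count. The J segments gave 3 UMIs in all plasma cells of mouse 1 and 1 in those of mouse 2.

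An assigned gene was found for 94.9% of plasma cells in mouse 1 (interval 94.0 to 95.8) and for 91.1% in mouse 2 (88.7 to 93.1). The cells without one were of different kinds in the 2 mice. In mouse 1, 1.90% of plasma cells held no Igkv UMI, 1.86% had a top gene under 50%, and 1.30% were tied between 2 genes at 50% and left unassigned. In mouse 2, 8.10% held no Igkv UMI, 0.568% had a top gene under 50% and 0.284% were tied. Without the barcodes under 100 light chain UMIs, a limit chosen after seeing the data, the assigned share was 95.9% in mouse 1 and 99.2% in mouse 2, and the order of the mice was turned round.

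Where a gene was assigned, its share was far above the limit. The top gene held a median 97.5% of the Igkv UMIs of an assigned cell in mouse 1 and 99.2% in mouse 2. At least 80% was reached in 89.7% and 94.9% of assigned cells, and every Igkv UMI came from 1 gene in 18.2% and 45.2%. Few cells lay near the limit: 42 assigned cells of mouse 1 and 7 of mouse 2 had a top share of 50 to 55%, and 10 and 2 plasma cells had one of 45 to under 50%.

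**Figure D1:**
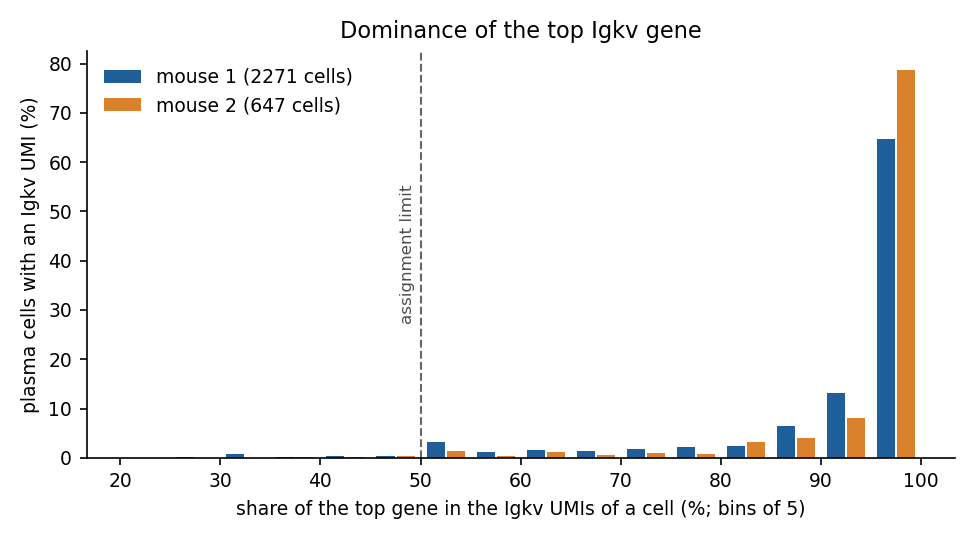
Share of the top Igkv gene in the Igkv UMIs of each plasma cell with at least 1 such UMI, in bins of 5 percentage points from 20 to 100%, as the percentage of the 2271 cells of mouse 1 (blue) and the 647 cells of mouse 2 (orange). The dashed line marks the 50% limit, the bin to its right includes the tied cells, and the last bin, 95 to 100%, holds 64.6% and 78.7% of cells.

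Light chain type was read from the constant genes. Among plasma cells with at least 100 light chain UMIs, Iglc1 to Iglc3 (lambda) exceeded Igkc in 129 of 2271 cells of mouse 1 (5.68%; interval 4.76 to 6.71) and in 4 of 638 cells of mouse 2 (0.627%; 0.171 to 1.60), and these intervals did not overlap. Lambda cells held a median of 2 and 1.5 Igkv UMIs, against 87 and 79 in kappa cells. Even so, 60.5% of the lambda cells of mouse 1 and all 4 of mouse 2 were assigned an Igkv gene. Of the kappa cells, 98.0% and 99.2% were assigned one, nearly all on 10 or more UMIs (96.1% and 97.8% of kappa cells held that many).

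Usage was spread over 75 genes, and a few of them were common. At least 1 cell was assigned to 71 genes in mouse 1 and to 55 in mouse 2. The 10 most used genes of each mouse held 52.6% and 60.2% of its assigned cells. The effective number of genes, the count of equally used genes for which a pair of cells drawn at random would share a gene as often, was 21.9 and 20.1. Drawn down to the number of assigned cells in mouse 2, mouse 1 would be expected to show 59.1 genes.

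Igkv6-23 (ENSMUSG00000095630; chr6:70260409-70260955) had the highest mean usage, 11.1% ± 4.71 (SD, n = 2 mice). It was assigned to 318 cells of mouse 1 (14.5%; interval 13.0 to 16.0) and 50 cells of mouse 2 (7.80%; 5.84 to 10.2). Igkv1-117 came next, with 94 cells of mouse 1 (4.28%) and 72 of mouse 2 (11.2%). It had the most cells in mouse 2, but Igkv12-44 held more of the Igkv UMIs there (19.3% against 12.7%). Igkv12-44 was assigned to 84 cells (3.82%) and 67 cells (10.5%). The intervals of the 2 mice did not overlap for any of these 3 genes, and Igkv6-23 was higher in mouse 1 while the others were higher in mouse 2. This was not particular to them. Among the 75 genes used in either mouse, the intervals did not overlap for 21, of which 10 were higher in mouse 1 and 11 in mouse 2.

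For Igkv10-96 and Igkv1-110 the shares of cells lay closer together. Igkv10-96 was assigned to 88 cells of mouse 1 (4.00%) and 30 of mouse 2 (4.68%; interval 3.18 to 6.61). Igkv1-110 took 77 cells (3.50%) and 26 cells (4.06%; interval 2.67 to 5.89). The mean usage was 4.34% ± 0.478 for Igkv10-96 and 3.78% ± 0.391 for Igkv1-110 (SD, n = 2), and for both genes the intervals of the mice overlapped. When each heavy and kappa pair was counted once in place of each cell, Igkv10-96 stood further apart, at 3.49% of pairs in mouse 1 and 6.70% in mouse 2, and Igkv1-110 at 3.99% and 4.64%.

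The other large differences ran in both directions. Igkv8-24 was assigned to 95 cells of mouse 1 (4.32%; interval 3.51 to 5.26) and to none of 641 in mouse 2, where the interval reached 0.574%. Igkv8-27 took 105 cells of mouse 1 (4.78%) and 9 of mouse 2 (1.40%), Igkv6-17 took 79 (3.59%) and 4 (0.624%), and Igkv5-43 took 126 (5.73%) and 19 (2.96%). In the other direction, Igkv8-30 took 21 cells (0.955%) and 41 (6.40%), Igkv14-111 took 26 (1.18%) and 37 (5.77%), and Igkv6-15 took 42 (1.91%) and 28 (4.37%). Together with Igkv6-23, Igkv1-117 and Igkv12-44, these are the 5 largest differences in each direction. With each pair counted once, some of them no longer held. Igkv8-30 was in 11 pairs of mouse 1 (2.74%) and 4 of mouse 2 (2.06%), few pairs on which to set an order. Igkv5-43, in 16 (3.99%) and 8 pairs (4.12%), and Igkv8-27, in 12 (2.99%) and 6 (3.09%), had nearly equal shares. Igkv6-17 was then at 2.24% and 2.06%, Igkv6-15 at 2.49% and 3.61%, Igkv1-117 at 3.99% and 5.15%, and Igkv12-44 at 4.24% and 5.67%. Igkv14-111 was in 6 pairs of mouse 1 and 8 of mouse 2, and Igkv8-24 in 6 and 0, of 401 and 194 pairs.

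**Figure D2:**
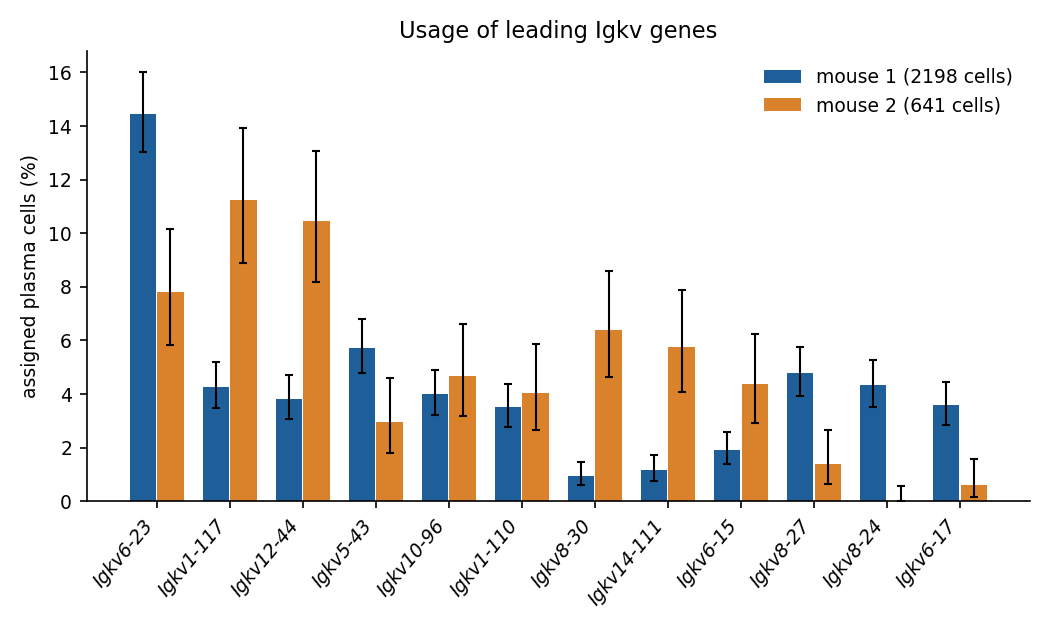
Percentage of assigned plasma cells with each Igkv gene as their top gene, in mouse 1 (blue, 2198 cells) and mouse 2 (orange, 641 cells), for the 10 genes of highest mean usage and for Igkv8-24 and Igkv6-17, which complete the 5 largest differences in each direction. Bars start at 0 and lines are 95% exact binomial intervals; Igkv6-23 stands at 14.5% and 7.80%, Igkv10-96 at 4.00% and 4.68%.

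By family, the first number in the symbol, family 6 led in mouse 1 with 490 cells (22.3%) over 8 of its 9 genes, and family 1 led in mouse 2 with 112 cells (17.5%) over 4 of its 13. Family 4, the one with the most genes (33, of which 26 are V genes), held 10.0% and 12.2% of cells. No cell of either mouse was assigned to families 7, 18 or 20, each of which has a single gene. Genes on the minus strand, opposite in orientation to the J segments, took 65.7% of assigned cells in mouse 1 and 59.1% in mouse 2. They make up 85 of the 160 genes and 62 of the 100 V genes. Usage ran along the whole locus: genes under 500 kb from Igkj1 held 23.5% and 18.7% of cells, and those over 2500 kb away held 17.0% and 18.7%.

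Of the 100 V genes, 26 were assigned to no cell in either mouse, 8 of them in family 4. Unused and used V genes were alike in how unique their sequence was: the median share of 60-base stretches found in another Igkv gene was 13.9% in the unused and 15.5% in the used genes. Pseudogenes were used by 8 cells in all, each in mouse 2 and assigned to Igkv3-11, at a median of 41 Igkv UMIs. Igkv3-11 is listed as a pseudogene and is 98.8% identical to Igkv3-6, which is not listed as a V gene either. Reads of such close copies may be split between them. In 5 cells of mouse 2 with Igkv3-11 on top, Igkv4-53 held a median 33.3% of the Igkv UMIs.

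Most cells of each mouse used genes that the other mouse used too, but in different proportions. In all, 51 genes were used in both mice, 71.8% of those of mouse 1 and 92.7% of those of mouse 2. They held 90.4% of the assigned cells of mouse 1 and 96.1% of those of mouse 2. The 20 genes seen in mouse 1 alone held 212 cells, 95 of them with Igkv8-24, and the 4 seen in mouse 2 alone held 25. Summing the smaller of both shares over all genes gave an overlap of 55.7% of cells. Across the 75 genes used, Pearson's r between the shares was 0.571 and Spearman's rho was 0.583. Genes are not independent replicates, and the number of cells behind each share differs.

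**Figure D3:**
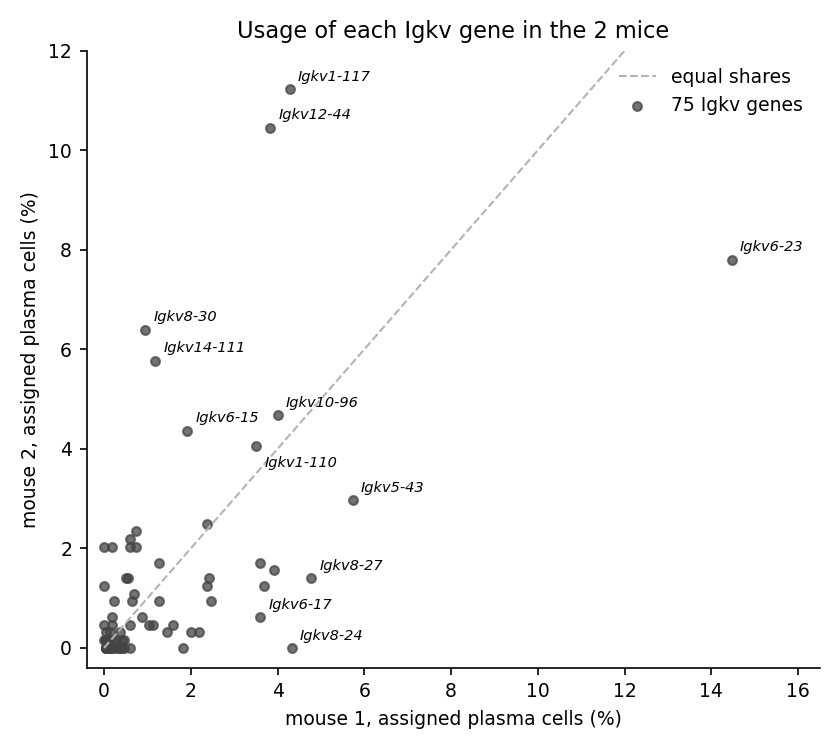
Usage of the 75 Igkv genes assigned to at least 1 plasma cell, as the percentage of assigned cells in mouse 1 (horizontal axis) and mouse 2 (vertical axis), 1 point per gene, with the 12 genes of the usage plot named and a dashed line at equal shares. Igkv10-96 and Igkv1-110 lie near the line, Igkv8-24 lies on the horizontal axis at 4.32%, and Igkv1-117 and Igkv12-44 lie above the line at over 10% in mouse 2.

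The heavy chain V gene was assigned in the same way from the Ighv genes, of which the median plasma cell held 26 UMIs in mouse 1 and 19 in mouse 2. Both genes were assigned in 2097 cells of mouse 1 (95.4% of cells with a kappa gene) and in 620 of mouse 2 (96.7%). Mouse 1 held 401 distinct heavy and kappa pairs and mouse 2 held 194, with 206 and 96 of these in a single cell. No minimum of Igkv UMIs was set, lambda cells with an assigned Igkv gene were not left out, and some pairs rested on few UMIs. The 12 cells of mouse 1 with Ighv1-26 and Igkv17-127 held a median of 3 Igkv UMIs. The 10 largest pairs held 33.7% and 32.3% of cells.

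Some kappa genes were paired mostly with 1 heavy chain gene. Igkv12-89 paired with Ighv9-4 in 97.5% of its 79 cells of mouse 1 with both genes, Igkv8-24 with Ighv1-81 in 90.3% of 93, and Igkv8-27 with Ighv1-55 in 80.4% of 102. In mouse 2, Igkv8-30 paired with Ighv1-26 in 85.0% of 40 cells, whereas in mouse 1 its 21 cells were led by Ighv1-18 at 42.9%. By number of partners in mouse 1, Igkv12-89 was seen with 3 heavy chain genes, Igkv8-24 with 6 and Igkv8-27 with 12. Igkv6-23 was seen with 24 in mouse 1 and 10 in mouse 2, and Igkv1-117 with 16 and 10. These numbers were not adjusted for the number of cells, which was 318 for Igkv6-23 in mouse 1, nor for cells with few Igkv UMIs.

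The largest pair of mouse 1 was Ighv1-39 with Igkv6-23, in 109 cells (5.20%; interval 4.29 to 6.24). It was found in 23 cells of mouse 2 (3.71%; 2.37 to 5.51), so that this pair was common in both mice and their intervals overlapped. The next 4 of mouse 1 were rare or not seen in mouse 2. Ighv1-77 with Igkv6-23 was found in 89 cells, Ighv1-81 with Igkv8-24 in 84 and Ighv9-4 with Igkv12-89 in 77, each with 0 cells of 620 in mouse 2, where the interval reached 0.593%. Ighv1-55 with Igkv8-27 was found in 82 cells of mouse 1 and 1 of mouse 2.

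In mouse 2, Ighv1-26 with Igkv8-30 was the largest pair, with 34 cells (5.48%; interval 3.83 to 7.58), and had no cell among the 2097 of mouse 1, where the interval reached 0.176%. Ighv14-3 with Igkv14-111 was found in 22 cells of mouse 2 and also in none of mouse 1. Ighv9-2 with Igkv1-117 was found in 32 cells of mouse 2 (5.16%) and 23 of mouse 1 (1.10%), and Ighv1-26 with Igkv1-117 in 20 (3.23%) and 18 (0.858%). Both Igkv1-117 pairs were therefore present in both mice, at a higher share in mouse 2.

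**Figure D4:**
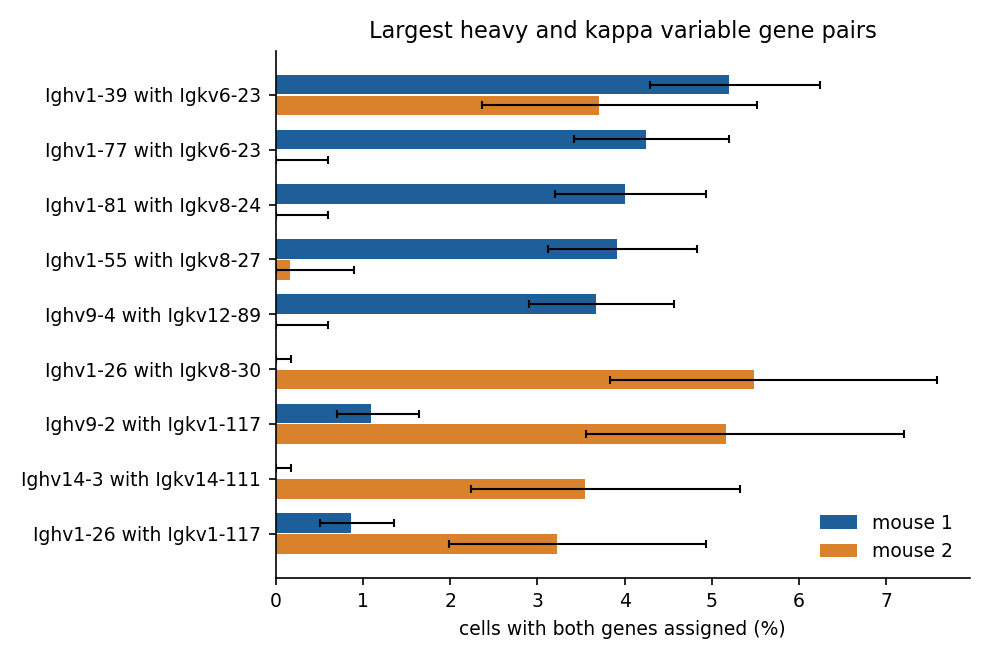
Percentage of cells with both an Ighv and an Igkv gene assigned that held each pair, in mouse 1 (blue, 2097 cells) and mouse 2 (orange, 620 cells), for the 5 largest pairs of each mouse (9 pairs, since 1 is among the 5 in both). Bars start at 0 and lines are 95% exact binomial intervals; Ighv1-39 with Igkv6-23 is high in both mice, at 5.20% and 3.71%, and 5 pairs have no cell in the other mouse.

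Over all pairs, 58 were seen in both mice (52 in cells with at least 10 Igkv and 10 Ighv UMIs). These 58 were 14.5% of the pairs of mouse 1 and 29.9% of those of mouse 2. They held 672 cells of mouse 1 (32.0%) and 238 of mouse 2 (38.4%). At least 2 cells in each mouse were found for 24 of them and at least 10 in each for 3, which were Ighv1-39 with Igkv6-23, Ighv9-2 with Igkv1-117 and Ighv1-26 with Igkv1-117. The smaller shares summed over pairs to an overlap of 16.2%. In the same cells this sum cannot exceed the one over kappa genes, so a lower value was fixed in advance. Over kappa genes it was 55.7%, taken over all assigned cells. When each pair was counted once in place of each cell, the overlap of kappa gene usage rose to 73.2%. The usage of Igkv6-23 fell to 5.99% in mouse 1 and 5.15% in mouse 2. Counted so, the 206 and 96 pairs of a single cell weighed as much as the largest pairs. That evens out the shares, and its part in both changes was not tested.

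The number of Igkv UMIs per cell differed with the assigned gene, in a like order in both mice. Igkv counts were set against the Igkc count of the same cell, since the V segment and Igkc lie on 1 transcript, and the median over cells is given. Among the 41 genes with at least 10 cells in mouse 1, the median of the genes was 0.901%. Igkv12-44 stood highest at 2.46%, followed by Igkv5-43 at 2.20%, and Igkv13-84 lowest at 0.184%. Among 19 such genes in mouse 2, Igkv12-44 was again highest at 1.76% and Igkv5-43 next at 1.70%, and Igkv4-53 lowest at 0.445%, against 0.645% in mouse 1. Igkv13-84 had 4 cells in mouse 2, at 0.229%. Over the 17 genes with at least 10 cells in both mice, Pearson's r of these medians was 0.803 and Spearman's rho was 0.745. The share of a gene's 60-base stretches that occur in another Igkv gene had a rho of 0.0115 with its percentage in mouse 1 and 0.0722 in mouse 2, and its identity to the nearest Igkv gene had a rho of -0.0287 and 0.330.

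A second Igkv gene at 20% or more of the Igkv UMIs was found in 167 of 2077 plasma cells of mouse 1 with at least 10 Igkv UMIs (8.04%; interval 6.91 to 9.29) and in 29 of 620 of mouse 2 (4.68%; 3.15 to 6.65). These cells held more UMIs than the rest, with medians of 40362 against 22880.5 in mouse 1 and 23799 against 20829 in mouse 2. Their top Ighv gene held a median 72.1% of Ighv UMIs in mouse 1, against 97.3% in the rest, and 94.7% against 100% in mouse 2. At least 2 UMIs of Cd3d, Cd3e and Cd3g were found in 23.4% of them against 10.4% of the rest in mouse 1, and in 10.3% against 11.7% in mouse 2. No doublet caller was run, and the part of barcodes holding 2 cells was not tested.

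Most combinations of a top and a second gene occurred once: 111 of 129 in mouse 1 and 18 of 22 in mouse 2. The most frequent was Igkv8-24 with Igkv19-93, in 8 cells of mouse 1, all 8 led by Ighv1-81. Igkv15-103 with Igkv10-95 followed in 6 cells, all 6 led by Ighv1-69, and Igkv3-11 with Igkv4-53 in 5 cells of mouse 2, all 5 led by Ighv1-62-2. The kappa genes of these combinations were 60.4%, 73.1% and 63.2% identical, so they are not close copies. The heavy chain call beside Igkv3-11 rested on few UMIs. The 6 cells of mouse 2 with Ighv1-62-2 and Igkv3-11 held a median of 2 Ighv UMIs, against 19 over all plasma cells there. Igkv4-59 with Igkv4-72 was found in 5 cells of mouse 1 and 2 of mouse 2, with 3 and 2 different heavy chain genes. That pair is 95.4% identical and differed at 2 of the last 90 bases, so a split of reads between copies cannot be told apart from transcription of both. Igkv5-43 with Igkv6-23, in 5 cells with 4 heavy chain genes, joined the 2 most used genes of mouse 1.

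In most heavy and kappa pairs, the further gene with the most UMIs (the leading one) was missing from most of the cells. Among 46 pairs of mouse 1 and 10 of mouse 2 with at least 10 such cells, the leading further gene was present in at least 50% of the cells of 8 and 1 pairs, and its median was 0 UMIs in 38 and 9. In the largest pair of mouse 1, Ighv1-39 with Igkv6-23, the leading further gene was found in 5 of 104 cells. A few cells could set it: Igkv16-104 led in Ighv9-4 with Igkv12-89 from 1 of 76 cells. Whether another gene was present in more cells of a pair was not counted. The pairs below were picked from those at 50% or more after their values were seen. Of 82 cells with Ighv1-81 and Igkv8-24 and at least 10 Igkv UMIs, 69 (84.1%) held a UMI of Igkv19-93, which gave 6.87% of their Igkv UMIs and 1.26% of those of all plasma cells of mouse 1. Of 48 cells with Ighv2-2 and Igkv1-110, all 48 held Igkv1-117, at a median of 13 UMIs and 9.12% of Igkv UMIs. As the sequences above show, Igkv1-110 and Igkv1-117 are nearly alike, whereas Igkv8-24 and Igkv19-93 are not.

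Igkv3-1 and Igkv3-2 were common in cells that were assigned another gene, and were singled out after their values were seen. They lie 18.4 and 23.5 kb from Igkj1, the nearest of all Igkv genes. Of assigned plasma cells with at least 10 Igkv UMIs and another assigned gene, 257 of 2055 in mouse 1 held an Igkv3-1 UMI (12.5%; interval 11.1 to 14.0) and 84 of 613 in mouse 2 (13.7%; 11.1 to 16.7). Igkv3-2 was found in 7.89% and 6.98% of such cells. As the assigned gene, however, Igkv3-1 was found in 4 cells of each mouse and Igkv3-2 in 6 cells of mouse 1 and 0 of mouse 2.

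In T cells both were rare. Igkv3-1 was found in 9 of 3110 T cells of mouse 1 (0.289%) and 1 of 5306 of mouse 2 (0.0188%), and Igkv3-2 in 0.161% and 0.0377%. Igkv6-23, the most used gene, was found in 17.7% of plasma cells assigned to another gene and 7.23% of T cells in mouse 1, and in 1.76% and 0.603% in mouse 2. Other genes, of which 2 were picked after their values were seen, were also rare in T cells relative to plasma cells. Igkv3-11 was found in 1.99% of such plasma cells and 0.0322% of T cells in mouse 1, and Igkv4-72 in 5.70% and 0.0188% in mouse 2. Plasma cells were deeper than T cells, and the part of depth and free RNA in these shares was not tested.

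**Figure D5:**
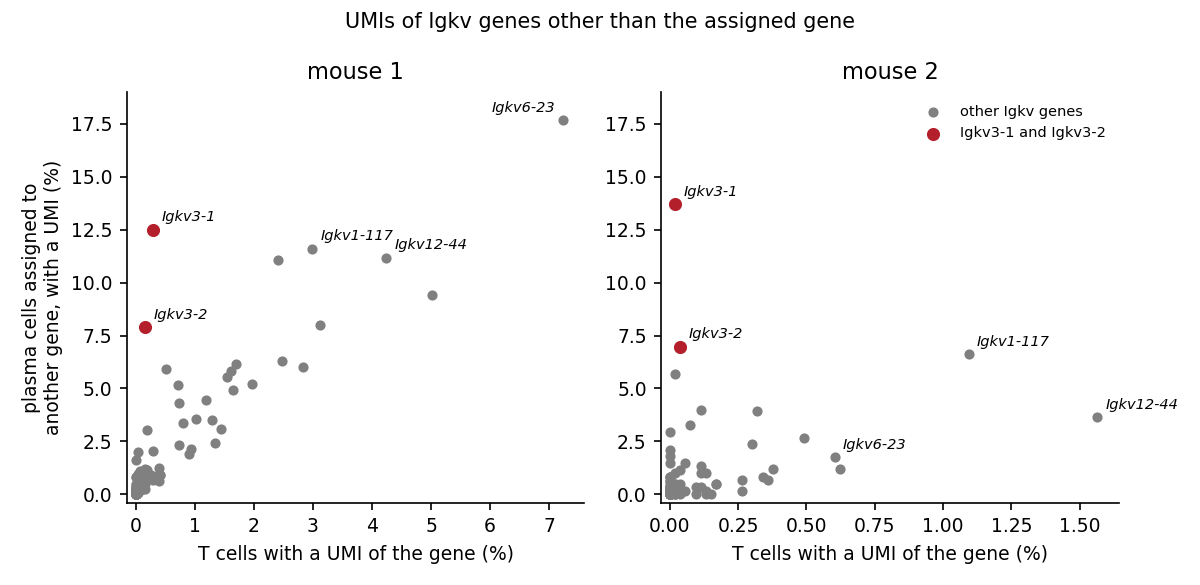
For each of the 160 Igkv genes, the percentage of T cells with at least 1 UMI of it (horizontal axis, whose range differs between panels) and the percentage of plasma cells with at least 1 UMI of it among those assigned to another gene on 10 or more Igkv UMIs (vertical axis), in mouse 1 (left) and mouse 2 (right). Igkv3-1 and Igkv3-2 (red) lie at 12.5% and 7.89% of plasma cells in mouse 1 and 13.7% and 6.98% in mouse 2, close to 0 on the T cell axis.

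The cells with Igkv3-1 as a further gene were not of 1 kind. They were assigned to 42 different Igkv genes in mouse 1 and 28 in mouse 2. At least 2 UMIs were found in 6.76% and 9.30% of the cells that used another gene. Igkv3-1 was the leading further gene in 13 of 46 pairs with at least 10 such cells in mouse 1 and in 3 of 10 in mouse 2. It was present in 14.1% of cells assigned to plus strand genes and 11.7% of those assigned to minus strand genes in mouse 1, and in 15.9% and 12.2% in mouse 2, and these intervals overlapped. The cells with it were slightly deeper, at median depths of 25788 against 22964 UMIs in mouse 1 and 22203.5 against 20676 in mouse 2. In lambda cells an Igkv3-1 UMI was found in 1 of 129 in mouse 1 and in 2 of 4 in mouse 2 (interval 6.76 to 93.2), and in B cells in 1 of 323 and 0 of 68.

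Heavy chain class left no contrast to describe. Igha took at least 50% of the heavy chain constant UMIs in 2195 of 2198 assigned cells of mouse 1 (99.9%) and 640 of 641 of mouse 2 (99.8%). The exceptions in mouse 1 were 2 Ighm cells, with Igkv4-68 and Igkv3-2, and 1 Ighg2b cell with Igkv17-127, and in mouse 2 there was 1 Ighm cell with Igkv10-94. With 3 and 1 cells, kappa usage of IgM or IgG plasma cells was not compared with that of IgA plasma cells.

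B cells held few Igkv UMIs, more than T cells did in both mice. There were 323 in mouse 1 and 68 in mouse 2, with median depths of 3350 and 2344 UMIs. An Igkv UMI was found in 54.8% and 23.5% of them, against 42.4% and 8.33% of T cells of the same libraries, and the intervals of B and T cells did not overlap (49.2 to 60.3 against 40.6 to 44.1 in mouse 1, and 14.1 to 35.4 against 7.60 to 9.11 in mouse 2). No B cell held more than 6 or 3 Igkv UMIs. Igkv RNA stood at 215 and 114 CPM in B cells, against 153 and 32.5 CPM in T cells. A gene was assigned in 126 and 13 B cells, led in mouse 1 by Igkv12-44 (13.5%) and Igkv6-23 (10.3%), genes that also held 7.45% and 13.6% of the Igkv UMIs of T cells there. The profile of Igkv UMIs in B cells overlapped that of plasma cells by 77.4% in mouse 1 and 42.7% in mouse 2, where it rested on 20 UMIs, and that of T cells did so by 84.9% and 78.7%. No test between B cells and plasma cells was run, because mouse 2 held fewer than 20 assigned B cells.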

How the data were processed

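Single-cell libraries of 2 APC mice (10x 3′ v3) were used, and each mouse was 1 replicate of 1 group. Per the labels, the authors counted with Cell Ranger 6.1.2 against mm10, and the matrices they deposited hold unnormalized UMI counts. The annotation release was not given in the sources used here. No doublet caller and no normalization were applied. Barcodes were filtered as stated in the report, and the limits of the study on haemoglobin and on rarely detected genes were not used. Gene models and transcripts came from GENCODE M21 (GRCm38), and identity from global alignments (Biopython 1.88). Shares carry 95% exact (Clopper-Pearson) intervals (scipy 1.17.1), which cover counting error only. The assignment was tested on simulated data in which each cell had a true kappa gene. Cells holding only free Igkv RNA were not simulated. Genes named were the 10 with the highest mean usage, the 5 largest differences in each direction, the 5 most frequent combinations of top and second gene, and the 5 most frequent heavy and kappa pairs of each mouse; others are named as counts of 5 or fewer or as chosen after their values were seen. Members, lists and tests were chosen with earlier results of these data known. Planned fits across Igkv genes (plasma against B cells, IgA against IgM or IgG) were not run, since at least 20 assigned cells per sum were required. T cells had 2 or more UMIs of Cd3d, Cd3e and Cd3g, and B cells 3 or more of a set of B cell genes that includes Ms4a1 and Cd79b, with 1 or more of Ms4a1 and none of the Cd3 genes; both had under 10 UMIs of the 3 plasma cell genes.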

Additional observations from a re-analysis of the deposited data

Results flagged for a closer look

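Barcodes removed by the filters still carried assigned kappa genes. Of 42 removed barcodes of mouse 1 with at least 10 UMIs of Mzb1, Derl3 and Xbp1, 92.9% had an assigned Igkv gene (95% exact interval 80.5 to 98.5), and of 13 of mouse 2, 76.9% did (46.19 to 94.96). They were flagged because they lie outside the cells described in the report. Their median mitochondrial share was 7.51% and 9.63%, and they held a median of 11.5 and 4 Igkv UMIs, against 82 and 73.5 in the kept plasma cells. Their usage overlapped that of the kept cells of the same mouse by 55.6% and 48.2%. These overlaps rested on 39 and 10 assigned barcodes, too few to set against the overlap between the mice.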

How the results depend on the processing

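The mean share of plasma cells with an assigned gene was 93.0% and moved to 85.8% when the top gene had to hold 80%, to 99.2% with at least 10 Igkv UMIs, to 99.3% with each cell thinned to 10 Igkv UMIs, to 97.9% with 20 UMIs of the 3 plasma cell genes and, in a setting chosen after seeing the data, to 97.6% with at least 100 light chain UMIs. The mean usage of Igkv6-23 was 11.1%, and counting each pair once moved it to 5.57% and the overlap of usage from 55.7% to 73.2%. Other settings for the usage of Igkv6-23 and for the overlap stayed within the spread between mice or the counting interval (the spread of 2 mice is wide, and does not show that a direction held). Among the other leading genes, counting each pair once left Igkv5-43 and Igkv8-27 at nearly equal shares in the mice. It turned the order for Igkv8-30 on few pairs, with the values in the report. Counted by Igkv UMIs in place of cells, Igkv12-44 came first at a mean of 15.4%, ahead of Igkv6-23 at 9.08%. The count of shared pairs was 58 and fell to 43 when both top genes had to hold 80%. It was 52 in cells with at least 10 Igkv and 10 Ighv UMIs. In a setting chosen after seeing the data, it fell to 24 when 2 cells were asked of each mouse. Without cells holding 2 or more Cd3 UMIs, also chosen after seeing the data, it fell to 47. With 20 UMIs of the plasma cell genes, Igkv12-44 led in mouse 2 at 10.8%, against 10.7% for Igkv1-117. Leaving out each mouse in turn gave assigned shares of 91.1% to 94.9% and an Igkv6-23 usage of 7.80% to 14.5%. No paired analysis was possible because there was 1 group only. The planned fits between cell classes, and their alternatives, were not run, for the numbers of cells given in the report.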
